A study of Drosophila melanogaster with 23 samples.

Results

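The genes described here carry the names of cytoplasmic ribosomal protein genes of Drosophila melanogaster. They were taken by symbol from a RefSeq gene table, as all protein-coding genes named RpL or RpS with a number, plus RpLP0, RpLP1, RpLP2 and sta, which encodes the small subunit protein SA. That gave 92 genes of the 13911 protein-coding genes on the main chromosome arms. By symbol, 50 of the 92 were counted to the large subunit and 39 to the small subunit. The other 3 were counted to the P stalk, the arm of the large subunit that recruits translation factors. The 92 include 11 minor paralogues or "-like" genes, RpL10Aa, RpL22-like, RpL37-2, RpL7-like, RpL24-like, RpS5b, RpS10a, RpS15Ab, RpS19b, RpS28a and RpS28-like. All 11 are called minor paralogues below. Whether every product, such as those of the "-like" genes, is part of the mature ribosome was not examined.

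All samples were chromatin of wild-type Oregon-R embryos 2 to 3 h after egg laying, laid within 1 h, kept at 25 °C for a further 2 h and crosslinked with 1.8% formaldehyde (15 min). ChIP-nexus, which digests immunoprecipitated fragments with an exonuclease up to the crosslinked protein, gave 3 libraries for each of 6 transcription factors, namely Zelda (Zld), GAGA factor (GAF), the axis factors Bicoid (Bcd) and Caudal (Cad), and Dorsal (Dl) and Twist (Twi). The histone marks H3K27ac and H3K4me1 were mapped by ChIP-seq with 2 libraries each, and a whole cell extract sample was not used here. Whole embryos were used, so a list pools the nuclei of all regions of the embryo, and nothing in the labels says that the libraries of a group came from separate collections; the spread between them may be technical.

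Every cell needs ribosomes, and the embryo starts with a maternal supply of them while its own genome is only being switched on at the stage studied. Zld is the activator known for opening chromatin at the onset of zygotic transcription, and GAF is another factor known for opening it. Bcd and Cad pattern the anteroposterior axis and Dl and Twi the dorsoventral axis, while H3K27ac marks active promoters and enhancers and H3K4me1 is best known from enhancers. In flies, most ribosomal protein genes have short promoters with a TCT initiator, and many carry small nucleolar RNA (snoRNA) genes in their introns.

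Each library was represented by the list of intervals the authors had called. The 22 lists held between 6067 and 54449 intervals on the arms, with H3K4me1 library 2 the shortest and the GAF lists, at 27232 to 31013, the shortest of the factors. Read depth is unknown, since the lists carry no read counts. A gene was counted as bound or marked where the summit of an interval lay in the gene or within 1 kb of it, and intervals were ranked within their list by the authors' −log10 p, with rank 1 the strongest. As a check of the labels, sna, rho and sog had a strong Dl and Twi summit within 10 kb, and hb, Kr and eve a strong Bcd and Cad summit, in 3 of 3 libraries each; strong means among the 5000 strongest of its list.

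The ribosomal protein genes were short, with a median length of 1326 bp against 2161 bp over all protein-coding genes. Another protein-coding gene lay within 1 kb of 83 of them (90.2%), against 87.6% of all genes, so that a summit in the window can belong to a neighbour. RpL12 and RpL39 overlap each other's windows, as do the tandem copies RpS14a and RpS14b, whose near-identical sequence also leaves the origin of their reads uncertain.

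Nearly all of the 92 genes had a summit of 5 of the 6 factors in every library of the factor. Zld reached 90 genes (97.8%), Dl 90 (97.8%), Bcd 91 (98.9%), Cad 91 (98.9%) and Twi 86 (93.5%). Most genes of the genome were counted with lists of this length too, namely 81.2% of all protein-coding genes for Bcd, 76.5% for Cad, 73.4% for Dl, 80% for Twi and 81% for Zld. GAF was found in every library at 57 of the genes (62%), against 61% of all genes, and the means over libraries, 71.7% ± 4.35 against 69.6% ± 2.43 (SD, n = 3), differed by less than the spread. At least 1 list had a GAF summit at 80.4% of the ribosomal protein genes, against 78.9% of all genes. GAF was absent from all 3 lists at 18 of the 92 genes and at 2942 of all 13911. The 18 included RpL8, RpL10, RpL14, RpL28, RpL32, RpS23 and RpS30.

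An H3K27ac summit lay within 1 kb in both lists at 86 of the 92 genes (93.5%), against 55.2% of all protein-coding genes. The share was 94.6% in each H3K27ac library, against 57.4% and 56.9% of all genes. H3K4me1 summits were found in both lists at 40 of the genes (43.5%), against 18.4% of all genes, and the 2 libraries differed widely, with 88% and 43.5% of the ribosomal protein genes against 38.5% and 21.2% of all genes.

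**Figure D1:**
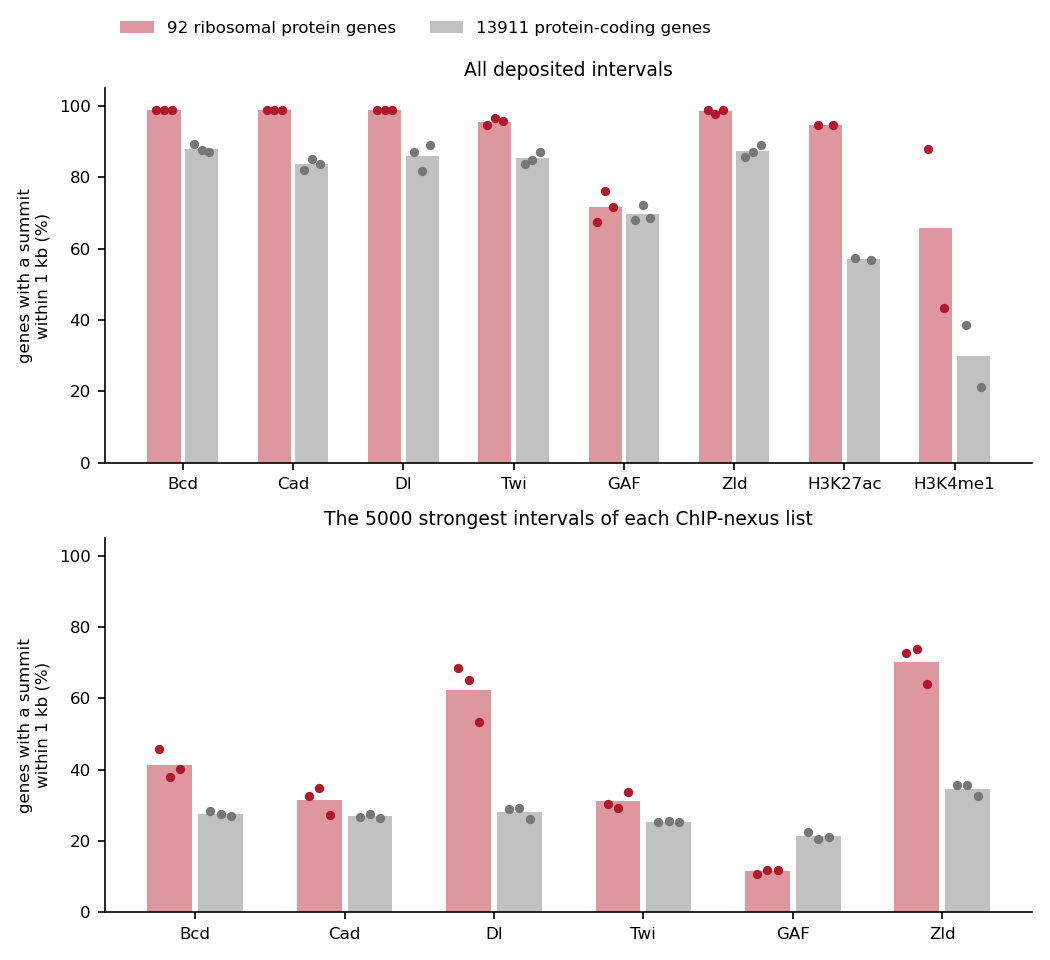
Share of genes with a summit within 1 kb (%, y axis) for each factor and mark (x axis), for the 92 ribosomal protein genes (red) and the 13911 protein-coding genes (grey); points are libraries and bars their means, from all intervals (top) and the 5000 strongest of each ChIP-nexus list (bottom). With all intervals the red and grey bars of GAF are level, and with the 5000 strongest the 3 GAF points of the ribosomal protein genes (10.9% to 12%) lie below the grey ones while those of Zld and Dl lie far above theirs.

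Among the 5000 strongest intervals, Zld was found in every library at 57 ribosomal protein genes (62%), against 30% of all genes, and Dl at 39 (42.4%), against 20.8%. Bcd followed with 30 (32.6%), against 23.8%, and Twi with 24 (26.1%), against 22.8%. Cad reached 21 genes (22.8%), close to the 23.1% of all genes. GAF lay clearly below, with 10 genes (10.9%), against 19.6% of all genes.

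The same held library by library. For Zld, 72.8%, 73.9% and 64.1% of the ribosomal protein genes had a strong summit in libraries 1 to 3, against 35.7%, 35.6% and 32.5% of all genes. For Dl the shares were 68.5%, 65.2% and 53.3%, against 28.9%, 29.4% and 26.2% of all genes. For GAF they were 10.9%, 12% and 12%, against 22.5%, 20.6% and 21.1%. In each of these factors the library values of the ribosomal protein genes and of all genes did not overlap. For Cad, with 32.6%, 34.8% and 27.2% against 26.8%, 27.6% and 26.6%, they did.

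The place of each gene's strongest interval in its list again put Zld and Dl first and GAF last. The median Zld interval at a ribosomal protein gene stood in the top 5.93% ± 1.11 of its list (SD, n = 3), against the top 15.4% ± 0.297 over all bound genes. The median Dl interval stood in the top 8.06% ± 0.773, against 19.8% ± 1.21, and the median H3K27ac interval in the top 7.81% ± 1.28 (SD, n = 2), against 19.3% ± 0.764. For GAF it was the top 43.8% ± 3.75, against 34.5% ± 1.12, so the GAF intervals that these genes had were weaker than those of the average bound gene.

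**Figure D2:**
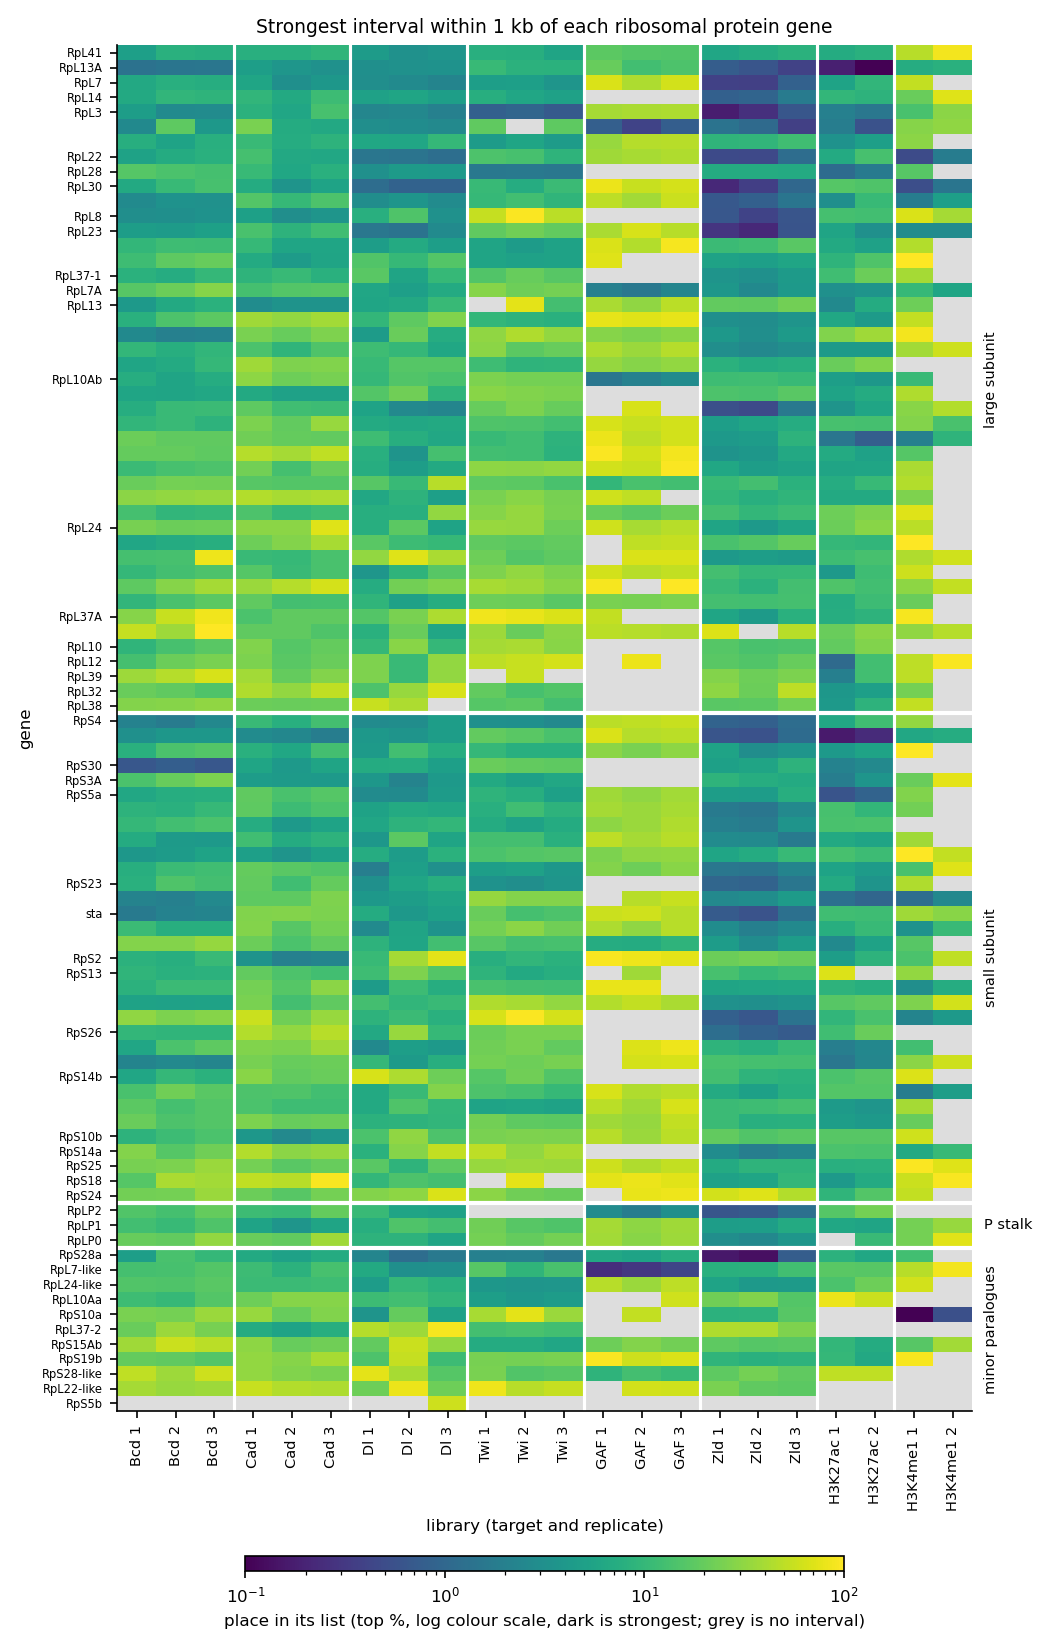
Place of the strongest interval within 1 kb of each ribosomal protein gene (rows, by subunit, with the 11 minor paralogues apart and, within a block, by the number of ChIP-nexus libraries with a strong summit) in each of the 22 lists (columns), as a top percentage on a log colour scale; grey means no interval, and labels mark genes named in the text. The Zld columns are dark in rows such as RpL3, RpL30, RpL23 and RpS28a, the GAF columns are mostly light or grey apart from a few rows such as RpL7A and RpL7-like, and RpS5b is grey in all columns but 1.

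Other gene groups were set beside them, chosen by symbol. Strong Zld summits in every library were found at 62% of the cytoplasmic ribosomal protein genes, 57.7% of 52 translation initiation and elongation factor genes, 39.7% of 73 mitochondrial ribosomal protein genes, 35.2% of 88 respiratory chain genes and 5.71% of 70 cuticle protein genes, which act late in development. For Dl the shares were 42.4%, 34.6%, 15.1%, 20.5% and 1.43% in the same order. Strong GAF summits were found at 10.9%, 19.2%, 5.48%, 11.4% and 2.86%. H3K27ac in both lists was found at 93.5% of the cytoplasmic and 94.5% of the mitochondrial ribosomal protein genes, and at 84.6% of translation factor, 77.3% of respiratory chain and 2.86% of cuticle genes. H3K4me1 in both lists differed between the 2 ribosomal groups, with 43.5% of the cytoplasmic and 19.2% of the mitochondrial genes.

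**Figure D3:**
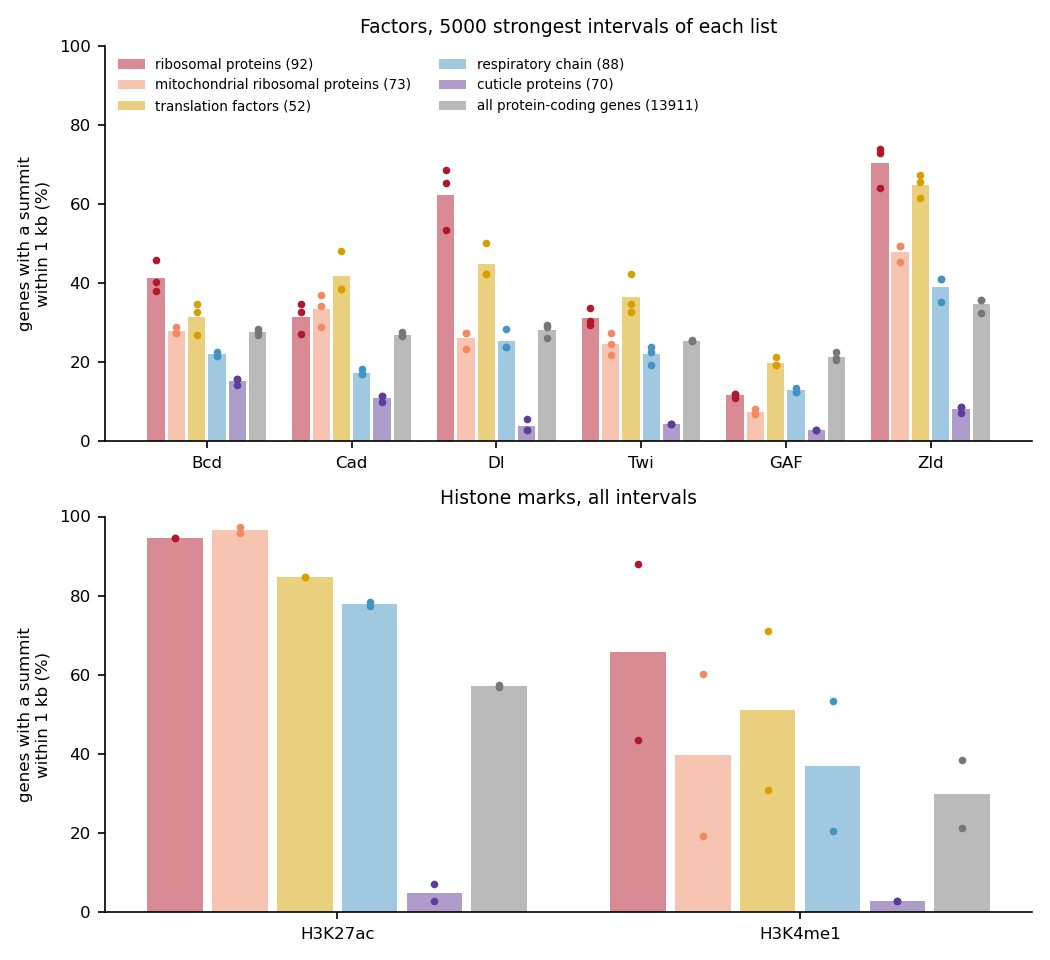
Share of genes with a summit within 1 kb (%, y axis) in 6 gene groups, with group sizes in the legend; points are libraries and bars their means. The upper panel shows the 5000 strongest intervals of each ChIP-nexus list and the lower panel all intervals of the marks; the ribosomal protein genes have the highest bars for Bcd, Dl and Zld, and the cuticle genes the lowest throughout.

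Each gene was then tested for whether a factor's interval ranked differently from those of the other 5 factors. Lists were first shortened to their 20000 strongest intervals, and a gene got a score of 100 for the strongest and 0 for no interval. All 816 choices of 3 among the 18 ChIP-nexus libraries made up the permutation test, which was exact and two-sided, with Benjamini-Hochberg adjustment over all 13911 genes and a threshold of 0.05. The smallest p it can give is 0.0012. The test counted the 15 other libraries as separate units, though they are 3 each of 5 factors. A small p thus shows that the 3 libraries of a factor agree and stand apart. It does not measure the spread between factors.

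GAF ranked lower than the other factors at 52 of the 92 genes (56.5%), against 19.3% of all protein-coding genes. It ranked higher at 3 (3.26%), against 11.4%. The genes with lower GAF included 3 of the 11 minor paralogues, and the same call was made at 26 of 73 mitochondrial ribosomal protein genes, 18 of 52 translation factor genes, 23 of 88 respiratory chain genes and 1 of 70 cuticle genes. The median GAF score of the ribosomal protein genes was 14.2, 23.9 and 22.7 in libraries 1 to 3, against 18.3, 18.7 and 19.0 over all genes. Their mean score was 28.5 in GAF and 65.1 in the other 5 factors, against 33.8 and 41.8 over all genes. In mean score the ribosomal protein genes thus lay below all genes for GAF and above them for the other factors. At an unadjusted p under 0.05 the exact permutation test gave 62 genes with lower GAF (67.4%), against 24% of all genes, and 4 with higher GAF (4.35%), against 16.1%. With only the 5000 strongest intervals the adjusted count of lower GAF was 3, all among the 52, and 3.21% of all genes were called. Without any 1 GAF library it was 38, against 13.3% or 13.4% of all genes.

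RpL14, a large subunit protein, had the widest gap. Its GAF score was 0 in all 3 libraries, while those of the 15 other libraries lay between 74.5 and 98.2, so that the groups did not overlap (difference −85.80, adjusted p = 0.0061 by the exact permutation test). RpL28, RpS23, RpS30 and RpS3A were likewise at 0 in the 3 GAF libraries, with differences of −83.26, −81.83, −82.31 and −80.06. The 3 genes with higher GAF were RpL7-like, RpL10Ab and RpS28-like. RpL7-like had GAF scores of 99.7, 99.5 and 99.4, against 63.5 to 93.9 in the other libraries (adjusted p = 0.0061, exact permutation test). RpL10Ab had 97.9, 96.8 and 96.2, against 35.8 to 85.8, and RpS28-like 87.8, 80.5 and 85.6, against 0 to 65.0 (adjusted p = 0.0061 and 0.011, exact permutation test).

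Zld ranked higher than the other factors at 9 of the 92 genes (9.78%), against 6.98% of all genes, and lower at 0, against 1.03%. At an unadjusted p under 0.05 the exact permutation test gave 33 genes with higher Zld (35.9%), against 17.5% of all genes, and 1 with lower Zld (1.09%), against 3.26%. The 9 genes with an adjusted call included RpL22-like, RpL24, RpL37A, RpLP0, RpS14a, RpS18, RpS25 and RpS26. RpS26, a protein of the small subunit, had Zld scores of 97.4, 98.0 and 98.1, against 0 to 84.3 with a median of 36.3 in the other 15 libraries, so the Zld libraries lay above all others (adjusted p = 0.020, exact permutation test). RpS14a had 93.8, 95.6 and 93.9, against 0 to 80.1 with a median of 24.4 (adjusted p = 0.020, exact permutation test). With the 5000 strongest intervals the Zld count was 31, 6 of them among the 9, against 10.5% of all genes; without any 1 Zld library it was 0, of 0% of all genes. The median Zld score was 87.9, 87.7 and 80.7 at the ribosomal protein genes, against 56.9, 55.7 and 49.0 over all genes.

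**Figure D4:**
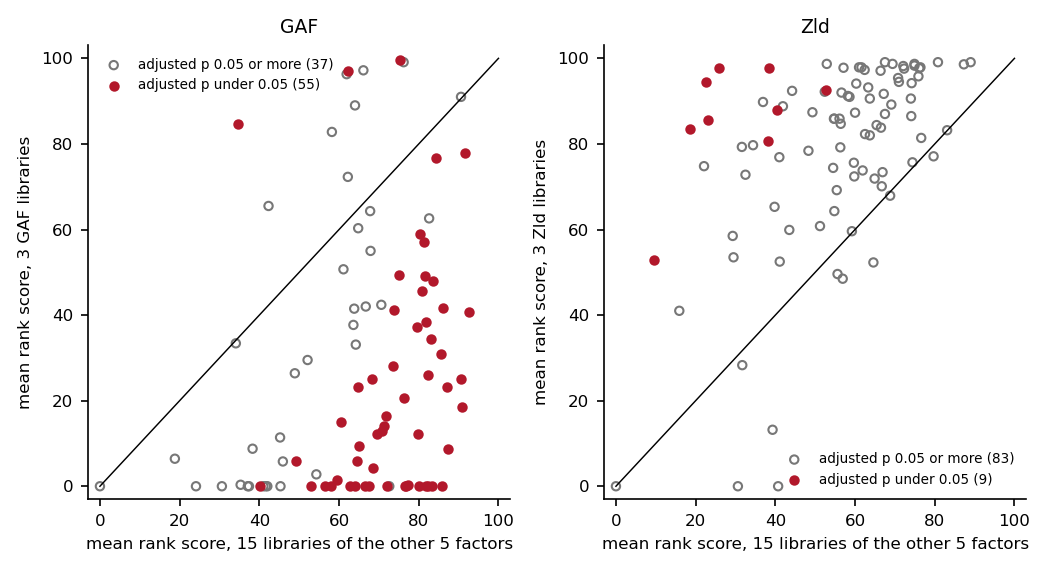
Mean rank score of each of the 92 genes in the 3 libraries of GAF (left) or Zld (right) on the y axis, against its mean score in the 15 libraries of the other 5 factors on the x axis; the line marks equal scores and filled points have an adjusted p under 0.05 in the exact permutation test. For GAF 52 filled points lie below the line and 3 above it, and for Zld all 9 filled points lie above it.

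The other 4 factors gave few calls. Bcd was higher at 0 genes, against 5.88% of all genes, and lower at 2, against 2.92%; Cad was higher at 2, against 3.6%, and lower at 1, against 2.63%. Twi was higher at 0, against 5.84%, and lower at 5, against 5.04%. Dl had 0 calls in either direction, against 0% of all genes in both, as its smallest adjusted p over all genes was 0.073. At an unadjusted p under 0.05 the same exact permutation test gave 13 genes with higher Dl (14.1%), against 7.7% of all genes, and 2 with lower Dl (2.17%), against 4.78%. It gave 5 with higher Bcd (5.43%), against 12.6%, and 6 with lower Bcd (6.52%), against 7.61%. For Twi the counts were 7 higher (7.61%), against 12.4%, and 19 lower (20.7%), against 10.7%, and for Cad 7 higher (7.61%), against 10.1%, and 7 lower (7.61%), against 7.61%. Among the genes with lower Twi was RpLP2, with scores of 0 in the 3 Twi libraries, against 54.7 to 98.6 in the others (adjusted p = 0.015, exact permutation test). Cad was higher at RpL37-2, with 85.4, 86.5 and 83.1 against 0 to 72.4, and at RpS10b, with 92, 93.7 and 91.8 against 33.8 to 76.3 (adjusted p = 0.023 each, exact permutation test). Without any 1 library of the factor, the adjusted Bcd, Cad and Twi counts were 0, as were those over all genes (0%). With 136 choices left the smallest p is larger, so these counts cannot show whether the calls depend on 1 library.

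Combinations of factors also differed from the genome at large. At least 1 factor with a strong summit in all its libraries was found at 78 of the genes (84.8%), against 53.8% of all genes, while all 6 factors did so at 1 gene (1.09%), against 4.55%. The most frequent pattern besides none was Zld alone, at 12 genes (13%), against 5.27% of all genes. Dl with Zld followed at 8 genes (8.7%), against 1.27%, and Bcd, Dl and Zld at 6 (6.52%), against 0.762%. Of the 39 genes with strong Dl, 33 also had strong Zld (84.6%, or 57.9% of the 57 genes with strong Zld); over all genes the shares were 77.3% and 53.7%.

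The one gene with all 6 factors was RpL41, which encodes the smallest ribosomal protein and had a strong summit in 18 of 18 libraries. Its strongest interval ranked 2183, 1289 and 2017 in the Dl lists and 4861, 4942 and 4194 in the GAF lists. RpL13A and RpS28a followed with 17 libraries, RpL7 with 15, and RpL3, RpL14 and RpS4 with 14. The number of libraries ran from 0 to 18 with a median of 7 over the 92 genes, against a median of 3 over all genes. No strong summit of any factor was found at RpL22-like, RpL32, RpL38, RpS24 or RpS5b; RpL32 and RpL38 carried H3K27ac, at ranks 566 and 685, and 626 and 1209.

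RpL3, a protein of the peptidyl transferase region of the large subunit, had some of the best Zld ranks among these genes. The gene lies at chr3R:11221894-11225173 (dm6, gene ends from RefSeq), and its strongest Zld interval ranked 75, 120 and 332, with the authors' fold enrichments of 19.5, 18.9 and 15.6. The Zld region shared by the 3 libraries that held these summits was chr3R:11221352-11222022, over one end of the gene, and the summits lay 98, 83 and 83 bp outside it. Twi was at its strongest among these genes here too, at ranks 363, 440 and 355, but 905, 905 and 874 bp inside the gene. GAF ranked 10918, 12924 and 11735. At this gene Zld and Twi thus peaked at separate places, and GAF was weak in all 3 libraries.

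RpS28a, a minor paralogue of 304 bp at chr3R:30022345-30022648, had Zld ranks of 67, 61 and 400, Dl ranks of 1120, 471 and 897 and Twi ranks of 881, 949 and 800. Its Zld summits lay 127 to 129 bp outside the gene, which has Axn and Mgat2 within 1 kb. RpL23, also high for Zld, ranked 123, 102 and 318. At RpL3, RpS28a and RpL23 alike, Zld was weaker in library 3 than in the other libraries.

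RpL13A, at chr3R:5624474-5625947, combined high ranks of several factors with the best mean rank for H3K27ac. Its H3K27ac intervals ranked 27 and 14, and the region shared by both lists, chr3R:5622379-5626433, spanned the whole gene. Zld ranked 330, 283 and 204 there and Bcd 729, 728 and 692, with summits inside the gene. RpS5a was also near the top for H3K27ac, at 89 and 126. RpS30, whose product is made as a fusion with a ubiquitin-like protein, had the strongest Bcd, at ranks 356, 395 and 305, but 879, 741 and 732 bp from the gene, and no GAF interval.

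RpL30 and RpL22 had the strongest Dl. RpL30 ranked 582, 346 and 480 in the Dl lists and RpL22 739, 559 and 664. The Dl summits of RpL30, at chr2L:19008031-19009306, lay 52, 88 and 4 bp outside one end of the gene. Both genes were also near the top for H3K4me1, at ranks 70 and 88 for RpL30 and 65 and 109 for RpL22, with summits 64 to 138 bp outside the gene. RpS2 and RpL13 were among the leading genes for Cad, and at RpS2 the ranks were 1470, 1007 and 998.

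GAF was strong at few genes. RpL7-like, at chr2L:12056326-12058251, ranked 68, 94 and 116, with fold enrichments of 53.2, 52.1 and 46.2 in the deposited lists and a summit 313 bp outside the gene in all 3. RpL7A was also among the strongest, at 552, 489 and 626, where the summits lay 942 to 951 bp outside the gene. RpL7-like has CG34164, JhI-21 and Rab3-GAP within 1 kb, and RpL7A has Agxt and dx. Of the 9 ribosomal protein genes with no neighbour within 1 kb, 2 had a GAF summit in every library (22.2%), against 55.6% of the 1727 protein-coding genes with no neighbour.

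The 3 P stalk genes shared strong Zld and lacked strong Bcd and Twi. Zld ranked 1310, 1152 and 1965 at RpLP0, 2015, 2193 and 3567 at RpLP1 and 273, 327 and 665 at RpLP2. RpLP2 also had strong GAF, at ranks 779, 563 and 854, and no Twi interval in any list. RpLP0 had an H3K27ac summit within 1 kb in only 1 of the 2 lists, at rank 1487. Regions shared by both H3K27ac lists nevertheless covered 53.7% of this gene. At sta, Bcd ranked 936, 1072 and 1050 and Zld 307, 269 and 670, while GAF ranked 15998, 18792 and 12817. Between the subunits, strong Zld in every library was found at 29 of 50 large (58%) and 25 of 39 small subunit genes (64.1%), and strong Dl at 20 (40%) and 18 (46.2%); the difference was not tested.

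Among the minor paralogues, H3K27ac was found at a smaller share. Both lists had a summit at 7 of these 11 genes (63.6%), against 79 of the 81 others (97.5%). The 4 ribosomal protein genes with no H3K27ac summit in either list, RpL22-like, RpL37-2, RpS10a and RpS5b, were all minor paralogues. The 2 others with a summit in 1 list only were RpS13 and RpLP0, of which regions shared by both lists covered 91.4% and 53.7%. Strong Zld in every library was found at 3 of the 11 (27.3%) and 54 of the 81 (66.7%), strong Dl at 3 (27.3%) and 36 (44.4%), and strong Bcd at 0 and 30 (37%). For Twi the counts went the other way, with 4 (36.4%) and 20 (24.7%), as for GAF, with 3 (27.3%) and 7 (8.64%). These are counts of few genes and were not tested.

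RpS5b, known from the fly ovary, was found in the fewest lists. It had 1 interval in the 22 lists, in Dl library 3 at rank 32576, with a fold enrichment of 1.91. RpS5a had intervals in 21 lists and strong factor summits in 12 libraries, with H3K27ac ranks of 89 and 126 and Zld ranks of 2009, 2093 and 4005. RpL22-like, which in flies is most abundant in the testis, had intervals in 17 lists, no mark and no strong summit; its Zld ranks were 10508, 8535 and 9269, against 200, 210 and 621 at RpL22. RpL37-2 had Zld ranks of 18696, 19600 and 13765, against 1525, 1460 and 2275 at RpL37-1, but strong Cad, at 2913, 2700 and 3376. In these 3 pairs the minor copy ranked below the other, or had no interval, in every Zld library.

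Not every pair followed. RpS10a had Zld ranks of 3596, 3949 and 8784, against 8109, 7062 and 9063 at RpS10b, and the best mean rank of the 92 genes for H3K4me1, at ranks 6 and 33, with summits 868 and 885 bp outside the gene and no H3K27ac interval. RpS19b had H3K27ac summits within 1 kb at ranks 1448 and 913, but regions shared by both lists covered 0% of the gene. RpS15Ab had summits at ranks 1444 and 970, with 70.4% of the gene covered. RpL10Aa was found at ranks of only 11939 and 8043 for H3K27ac, against 702 and 539 at RpL10Ab.

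H3K27ac covered much of these genes as well. Regions of at least 50 bp shared by both lists reached 88 of the 92 genes or the 1 kb around them (95.7%), against 58% of all genes. They covered a median of 56.2% of a ribosomal protein gene, against a median of 0.282% over all genes. At least 50% was covered in 57 of the ribosomal protein genes (62%), against 11.7% of all genes. Mitochondrial ribosomal protein genes were alike, with a median of 58.6% and at least 50% covered in 65.8%. The part of gene length in these values was not tested. For Dl, shared regions reached 87 of the ribosomal protein genes (94.6%), against 56.1% of all genes.

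The factors peaked close to the ends of the ribosomal protein genes. The gene table gives no strand, so starts and stops of genes were not told apart. The strongest Zld summit lay a median of 73.3 ± 8.08 bp from the nearest end of the gene (SD, n = 3), against 333 ± 36.7 bp over all bound genes. For Cad it was 82.7 ± 3.79 bp, against 379 ± 10.8 bp, for Bcd 90.3 ± 9.07 bp, against 415 ± 13.0 bp, and for Dl 102 ± 22 bp, against 434 bp. Twi lay farther off, at 156 ± 23.8 bp, against 445 bp, and GAF at 292 ± 72.8 bp, against 462 bp. Gene length differed between the groups, as given above, and its part in these distances was not tested. Mitochondrial ribosomal protein genes had medians of 200 ± 69.5 bp for Zld, 152 ± 27.3 bp for Cad, 210 ± 19.0 bp for Bcd, 303 ± 40.6 bp for Dl and 470 ± 14.8 bp for GAF. For Twi their median was 112 ± 16.1 bp, shorter than that of the cytoplasmic ribosomal protein genes.

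**Figure D5:**
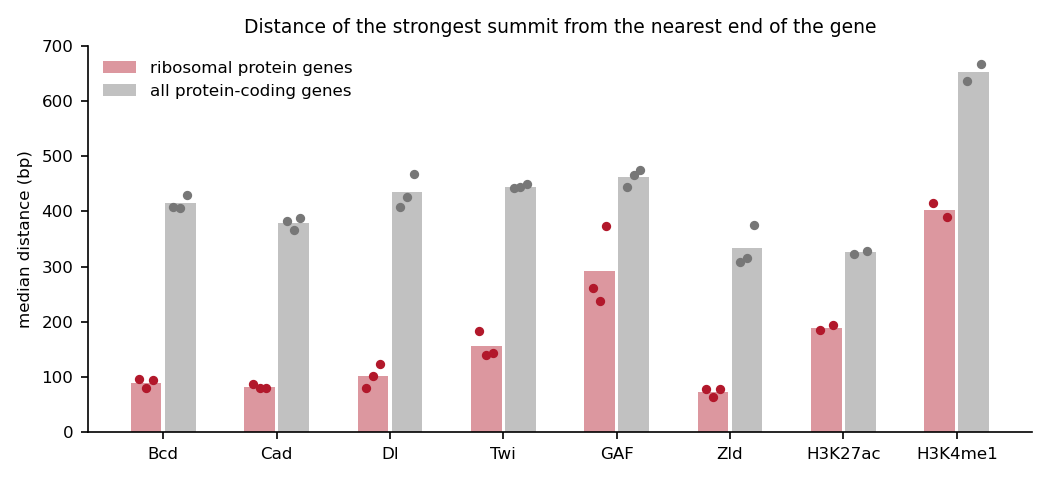
Median distance in bp (y axis) from the strongest summit within 1 kb of a gene to the nearest end of that gene, for each factor and mark (x axis), at ribosomal protein genes (red) and all protein-coding genes (grey); points are libraries and bars their means. The red points of all 8 targets lie below the grey ones, with the shortest distances for Zld (73.3 bp) and the longest for H3K4me1 among the ribosomal protein genes.

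Factors parted in whether they peaked in or outside the gene. Of the strongest Zld summits, 20.6% lay inside the ribosomal protein gene, against 39.6% over all genes; for Cad it was 26.4%, against 41.3%, and for Bcd 30.8%, against 47.2%. Dl was inside in 52%, against 51.3%, and Twi in 52.2%, against 47.3%. H3K27ac was inside in 79.9%, against 56.9%. At mitochondrial ribosomal protein genes the shares inside were 20.3% for Zld, 25.9% for Cad and 24.3% for Bcd. For Dl, Twi and H3K27ac they were 32.3%, 28.9% and 62.4%, lower than at the cytoplasmic ribosomal protein genes. The part of gene length in these shares was not tested. The nearest gene end was that of the ribosomal protein gene itself for 70.2% of the strongest Zld summits, 76.9% of Dl and 58.0% of GAF. For Bcd it was 72.5%, for Twi 73.5%, for Cad 66.3%, for H3K27ac 80.5% and for H3K4me1 60.9%. The rest lay nearer to an end of another gene. The same shares over all genes are not given here, so whether these are high or low cannot be said.

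Summits of different factors often coincided. The strongest Zld and Cad summits of a gene lay within 100 bp of each other at 62% of ribosomal protein genes on average over the 9 pairs of libraries, with a range of 54.9% to 67.0%, against 45.5% of all genes. Zld and Dl did so at 58.3%, with a range of 48.9% to 67.8%, against 37.5%, and Zld and Bcd at 53.7%, against 40.3%. Pairs of Zld libraries did so at 89.3%, against 74.5%, and pairs of Dl libraries at 69.4%, against 44.8%. The range of the Zld and Dl pairs thus reached up to that of the Dl pairs, 67.8% to 71.1%. Gene length differed between the groups, and its part in how often summits coincided was not tested.

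H3K27ac regions held the strongest summits of Twi at 59.5% ± 1.73 of the ribosomal protein genes (SD, n = 3), against 32.2% ± 0.633 of all genes, and those of Dl at 58.6% ± 7.72, against 31.8% ± 2.56. For GAF it was 55.9% ± 5.05, against 29.2% ± 0.627, and for Zld 33.8% ± 3.88, against 23.0% ± 0.413. Zld therefore had the lowest share of the 6 factors inside the mark, in the ribosomal protein genes as in all genes. H3K4me1 regions held 11.8% ± 0.564 of the Zld summits, against 4.78% ± 0.238. These shares are over all genes with a summit of the factor, with or without a region of the mark. An H3K27ac region reached 95.7% of the ribosomal protein genes, against 58% of all genes. For H3K4me1 it was 38%, against 17.3%. The part of this difference in the shares was not tested.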

How the data were processed

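Chromatin of 22 samples, 18 by ChIP-nexus and 4 by ChIP-seq, entered as 1 interval list per library. The submitters' processing notes name cutadapt 2.5, Bowtie2 2.3.5.1, MACS2 2.2.7.1 and the build dm6, without roles or settings. In the deposited lists, column 5 is a score, column 7 an enrichment ratio (fold), columns 8 and 9 the −log10 p-value and −log10 q-value, and column 10 the summit; these are the authors' values and were used only to rank, filter or describe intervals within a list. The lowest −log10 q in a list was 1.3 to 1.72. Titles number the GAF and Zld libraries 1 to 3, while other numbers appear on their lists, so these numbers are uncertain.

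Gene positions came from RefSeq for Release 6, which is dm6; the table holds no strand, and no sequence was used here. The 13911 protein-coding genes of the arms were scored with Python 3.11.15, numpy 2.4.6, pandas 2.3.3 and scipy 1.17.1. Shared regions are stretches of at least 50 bp covered in every library of a target. The permutation test and its adjustment are described with their results and were tested on simulated data. Genes are named by rule: the 8 with strong summits in most ChIP-nexus libraries, the 5 in fewest lists, the 3 with the best mean rank per target, the P stalk genes, sta and the minor paralogues; others were named after their values were seen, and a few items the rule names are not reported here. The genes, the lists and the tests were chosen with earlier results of these data known. The alternatives are given in the closing section.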

Additional observations from a re-analysis of the deposited data

How the results depend on the processing

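Among the 5000 strongest intervals, the share of ribosomal protein genes with a summit in every library was 32.6% for Bcd, 22.8% for Cad (below the 23.1% of all genes), 42.4% for Dl, 26.1% for Twi, 10.9% for GAF (below 19.6%) and 62% for Zld. The GAF share was level with that of all genes with a −log10 q of at least 10 (47.8% against 47.9%). Its leave-one-out values were 63% to 69.6%, and it was level with all genes without replicate 2 (63% against 63.1%). At genes with no neighbour within 1 kb it was lower (2 of 9, 22.2%, against 55.6% of the 1727 protein-coding genes with no neighbour). H3K4me1 gave 16.3% with a −log10 q of at least 10, 88% in at least 1 library, 22.2% at genes with no neighbour (against 16.5%), and 43.5% to 88% when a library was left out.

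The permutation counts of genes with higher and lower scores moved most with the 5000 strongest intervals: 4 and 0 for Bcd (against 5.87% and 1.02% of all genes), 5 and 0 for Cad (4.64% and 0.827%), 7 and 0 for Twi (5.99% and 1.47%), 5 and 3 for GAF (7.79% and 3.21%), and 31 higher for Zld (10.5%). Ranking by fold gave 1 higher for Bcd (5.56%) and 4 for Cad (4.01%), 35 lower for GAF (12.9%), 33 of them shared with the main ranking, 12 higher for Zld (6.55%), 8 shared, and 7 lower for Twi (5.54%), 3 shared. With the replicate block (216 ways), 47 genes had lower GAF (17.5% of all genes) and the counts were 0 for lower Bcd, higher and lower Cad, lower Twi and higher Zld, as they were over all 13911 genes; leaving out a library (136 ways) also gave 0 to 0 for these, and 0 of all genes. Residuals of libraries with the same number and different factors correlated at a mean of 0.016, 1 of 45 over 0.1. With different numbers the mean was −0.008, 0 of 90 over 0.1. Of 18 libraries, 8 correlated best with their own number. As the numbers of the GAF and Zld libraries are uncertain, these values cannot show whether libraries pair by number.

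Windows at gene ends only and the 20000 strongest intervals were added after the data were seen. Windows at gene starts, planned for both results, were not run, as the table holds no strand, nor were the promoter words. Read depth, which would set the weakest interval a list can hold, is unknown.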

Other observations

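Ribosomal protein genes that host snoRNA genes had larger shares of strong Dl, Bcd, Twi and Zld summits than the other ribosomal protein genes. A snoRNA gene lay within 29 of the 92 ribosomal protein genes (31.5%), against 0.69% of all protein-coding genes. Among the 5000 strongest intervals, Dl was found in every library at 21 of these 29 hosts (72.4%) and at 18 of the 63 other ribosomal protein genes (28.6%). The shares in libraries 1 to 3 were 93.1%, 93.1% and 72.4% of hosts and 57.1%, 52.4% and 44.4% of the others, and did not overlap. Library shares did not overlap for Bcd (62.1%, 51.7% and 55.2% of hosts, against 38.1%, 31.7% and 33.3% of the others), Twi (48.3%, 41.4% and 51.7%, against 22.2%, 23.8% and 25.4%) and Zld (86.2%, 82.8% and 75.9%, against 66.7%, 69.8% and 58.7%) either. In every library, Bcd was found at 14 hosts (48.3%) and 16 others (25.4%), Twi at 11 (37.9%) and 13 (20.6%), Zld at 21 (72.4%) and 36 (57.1%), Cad at 7 (24.1%) and 14 (22.2%), and GAF at 3 (10.3%) and 7 (11.1%). With all intervals, GAF was found in every library at 24 hosts (82.8%) and 33 others (52.4%). H3K27ac was found in both lists at 29 of 29 hosts and 57 of 63 others (90.5%). All 11 minor paralogues were among the others, as 0 of them held a snoRNA gene. Strong Bcd in every library was found at 0 of the 11, strong Zld at 3 (27.3%) and strong Dl at 3 (27.3%). H3K27ac was found in both lists at 7 of them (63.6%). Strong Twi, at 4 (36.4%), and strong GAF, at 3 (27.3%), were more frequent in them than among the others. Hosts were longer, with a median of 1792 bp against 1132 bp. The parts of length and of the minor paralogues in these shares were not tested. This split of the genes was chosen after the lists had been seen, and no test was made of it.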
